A study of Mus musculus with 40 samples.

Results

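The retina of mice with oxygen-induced retinopathy (OIR) was compared between P19 and P17 after treatment with a bispecific antibody that neutralizes both VEGFA and ANG-2. In all, 8 of the 40 whole-retina RNA-seq libraries of the study were used for the comparison, chosen by their labels: 4 retinas taken at postnatal day 19 (P19) and 4 taken at postnatal day 17 (P17). All mice were C57BL/6J. The bispecific animals had breathed 75% oxygen between P7 and P12 and then room air, and at P14 their eyes received an intravitreal injection of 1 µl of the VEGFA/ANG-2 bispecific antibody (clone name B20.4.1_LC10) at 0.4 µg/µl. The same P19 against P17 step in OIR retinas given 1 µl of control IgG at 0.4 µg/µl at P14, and in control retinas without OIR, here called normal, served as context, with 4 retinas at each age. Levels in OIR retinas given 1 µl of anti-VEGFA (clone B20.4.1) or anti-ANG2 (clone LC10) at P14 are set beside them for the called genes. These single antibodies were injected at 0.2 µg/µl, a lower concentration than that of the bispecific antibody and IgG. Each library came from 1 retina, and the labels do not say which retinas shared a mouse or a litter, nor whether normal eyes were injected.

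In OIR, high oxygen halts and prunes the growing retinal vessels, and on return to room air the vessel-poor retina becomes hypoxic and makes VEGFA, which drives tufts of abnormal vessels that later regress. VEGFA acts through the receptor KDR on endothelial cells, and ANG-2, the product of Angpt2, competes with ANG-1 at the receptor TEK and loosens vessel walls. In the same tissue Müller glia and astrocytes turn reactive, and rods and other neurons are still maturing at this age.

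Total counts in the 8 libraries ran from 9160000 to 18800000, within a range of 9160000 to 25800000 over the 40 libraries. Levels are given as CPM, read counts scaled to each library's effective size (total count times TMM factor), or as TPM, which is also corrected for transcript length. The retinal identity of the 8 libraries was clear from rod, cone, bipolar and Müller markers (Gnat1 at 7540 to 13000 TPM, Rlbp1 at 419 to 744 TPM), whereas the endothelial marker Cdh5 was at 0 to 0.5 TPM and the lens marker Mip at 0 to 0.4 TPM. P19 replicate 3 stood apart: it had the lowest total count of all 40 libraries, the largest TMM factor of the 8 (1.249) and the lowest correlation with the rest of its group (0.9095), and its 16 pigment epithelium genes summed to 1040 CPM, against 2040 to 3550 CPM in the other 7 libraries. The sexes were not balanced. All 4 P19 retinas carried Xist, the RNA of the inactive X chromosome (235 to 783 CPM) and no Y-linked counts, as did P17 replicates 1 and 2 apart from 0.208 CPM of Y-linked counts in replicate 2, whereas P17 replicates 3 and 4 carried 200 and 196 CPM of Y-linked counts. Skeletal muscle and anterior eye genes summed to 367 CPM in P17 replicate 2 and to 28.6 to 40.3 CPM in the other 7. In these bulk samples fewer cells of a type and less RNA per cell cannot be told apart.

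At P19 the bispecific retinas had more mRNA of the inositol kinase gene Ip6k2 and of Tnfaip3, an inhibitor of NF-kappa-B signalling, and less of S1pr3, Gabrb2, Cp and Scgn than at P17. Of 23495 genes tested with edgeR's quasi-likelihood model, 7 were called at a Benjamini-Hochberg adjusted p under 0.05, which is 0.0298% of the genes tested. Of these, 3 rose (0.0128%) and 4 fell (0.017%). At an unadjusted p under 0.05 there were 1358 genes (5.78%), 593 of them higher (2.52%) and 765 lower (3.26%) at P19, and the 4 libraries of one age lay wholly above the 4 of the other in 640 genes (2.72%; 282 or 1.2% higher and 358 or 1.52% lower at P19). The median log2 fold change over all genes was 0.013.

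Ip6k2, on chromosome 9 (GRCm38, 108783796 to 108806337, plus strand), encodes a kinase that makes inositol pyrophosphates from inositol hexakisphosphate. It was at 91.3, 67, 82 and 81.3 CPM in the 4 P19 retinas, against 46.2, 42.1, 44.5 and 44.5 CPM in the 4 P17 retinas. Every P19 value lay above every P17 value, and the fitted rise was 1.81-fold (log2 fold change 0.86, SE 0.14, adjusted p = 0.0034). Tnfaip3, on chromosome 10 (19000910 to 19015657, minus strand), encodes the ubiquitin-editing protein A20, which shuts down NF-kappa-B signalling. It stood at 119, 107, 92.7 and 116 CPM at P19 and at 79.8, 49.8, 65.6 and 52.5 CPM at P17. Again the 2 ages did not overlap, with a rise of 1.76-fold (log2 fold change 0.81, SE 0.16, adjusted p = 0.025). The third gene that rose, B230220B15Rik, is an annotated lincRNA on chromosome 13 (107996285 to 108004669, plus strand), and is named after its values were seen because it completes the set of called genes. It had 24.4, 22.2, 11.8 and 26.9 CPM at P19 and 4.06, 6.65, 7.63 and 1.13 CPM at P17, a 4.38-fold rise (log2 fold change 2.13, SE 0.39, adjusted p = 0.011).

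S1pr3, on chromosome 13 (51408639 to 51422797, plus strand), encodes a receptor for sphingosine 1-phosphate, a lipid that acts on vessels and immune cells. Its level was 33.3, 29.3, 15.4 and 21.9 CPM at P19 and 50.7, 53.5, 61.4 and 51.9 CPM at P17. The highest P19 retina was below the lowest P17 retina, and S1pr3 fell to 0.461 of its P17 level (log2 fold change -1.12, SE 0.2, adjusted p = 0.0095). Gabrb2, on chromosome 11 (42419757 to 42629028, plus strand), encodes the beta-2 subunit of the GABA-A receptor, a chloride channel opened by the inhibitory transmitter GABA. It measured 17, 23.9, 21.4 and 23.2 CPM at P19, against 41.1, 42.1, 41.9 and 44.3 CPM at P17. The P17 values were tightly grouped and all above the P19 values, and Gabrb2 fell to 0.505 of its P17 level (log2 fold change -0.99, SE 0.18, adjusted p = 0.0084).

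Cp, on chromosome 3 (19957054 to 20009145, plus strand), encodes ceruloplasmin, the copper-carrying ferroxidase that helps cells export iron. It was at 116, 126, 89.2 and 133 CPM at P19 and at 194, 223, 185 and 215 CPM at P17. With no overlap between the ages, Cp fell to 0.568 of its P17 level (log2 fold change -0.82, SE 0.14, adjusted p = 0.0034). Scgn, on chromosome 13 (23953456 to 23991214, minus strand), encodes secretagogin, a calcium-binding protein used as a marker of cone bipolar cells. Its counts came to 139, 122, 96.5 and 142 CPM at P19 and 184, 223, 225 and 216 CPM at P17. Scgn thus fell to 0.59 of its P17 level in non-overlapping groups (log2 fold change -0.76, SE 0.13, adjusted p = 0.0034).

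**Figure D1:**
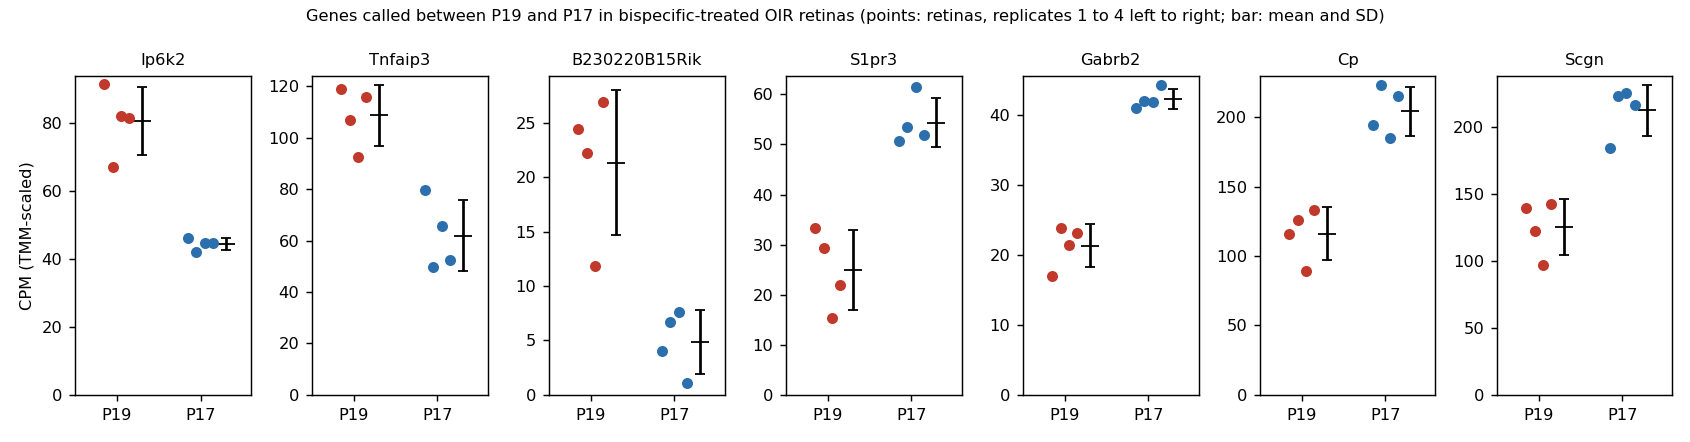
CPM (read counts scaled to library size with TMM factors, y axis from 0) of the 7 called genes in each bispecific retina, P19 left of P17, with points for replicates 1 to 4 from left to right and bars for the mean and SD. In each panel the 4 P19 points lie wholly above (Ip6k2, Tnfaip3, B230220B15Rik) or wholly below (S1pr3, Gabrb2, Cp, Scgn) the 4 P17 points.

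The spread behind these calls was estimated from all 40 libraries. With the 8 bispecific libraries fitted alone edgeR called 0 genes (713 at an unadjusted p under 0.05), and without P17 replicates 3 and 4, which carry Y-linked counts, it called 1, none of the 7. Ip6k2, Cp and Scgn stayed called whichever of the 8 libraries was left out, whereas Tnfaip3, B230220B15Rik, S1pr3 and Gabrb2 each lost the call in at least 1 such fit (adjusted p up to 0.26 for Tnfaip3, 0.093 for B230220B15Rik, 0.096 for S1pr3 and 0.085 for Gabrb2).

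The promoter windows of 4 of the called genes are shown as examples, chosen after their letters were seen because they differ in motif content, with 2 genes that rose and 2 that fell. Each runs from 250 bases before to 50 bases after a RefSeq start (GRCm38.p6), in gene orientation: Ip6k2 at chr9:108783562-108783861 (plus), Tnfaip3 at chr10:19015361-19015660 (minus), S1pr3 at chr13:51408368-51408667 (plus) and Scgn at chr13:23991165-23991464 (minus). All 7 called genes matched the RefSeq table by symbol. Capitals mark matches, on either strand, to the hypoxia response element cores ACGTG and GCGTG, the CRX core TAATCC, the STAT core TTCNNNGAA, and an NF-kappa-B core of GGGNN followed directly by TTTCC.
Ip6k2: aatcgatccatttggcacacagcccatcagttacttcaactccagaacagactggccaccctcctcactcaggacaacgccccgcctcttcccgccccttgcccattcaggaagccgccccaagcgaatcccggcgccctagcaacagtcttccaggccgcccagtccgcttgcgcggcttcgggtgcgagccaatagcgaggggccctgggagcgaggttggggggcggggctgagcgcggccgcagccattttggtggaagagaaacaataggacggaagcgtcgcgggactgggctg
Tnfaip3: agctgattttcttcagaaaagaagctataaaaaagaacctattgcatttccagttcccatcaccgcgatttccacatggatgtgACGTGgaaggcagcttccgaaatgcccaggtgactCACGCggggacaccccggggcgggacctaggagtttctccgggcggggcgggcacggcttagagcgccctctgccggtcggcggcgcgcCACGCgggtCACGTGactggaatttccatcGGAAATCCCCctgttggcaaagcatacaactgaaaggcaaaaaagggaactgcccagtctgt
S1pr3: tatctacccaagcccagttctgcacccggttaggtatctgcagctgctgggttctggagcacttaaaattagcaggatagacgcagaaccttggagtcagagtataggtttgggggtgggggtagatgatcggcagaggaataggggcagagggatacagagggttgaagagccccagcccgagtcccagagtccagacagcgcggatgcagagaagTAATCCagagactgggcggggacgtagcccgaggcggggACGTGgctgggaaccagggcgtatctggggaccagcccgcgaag
Scgn: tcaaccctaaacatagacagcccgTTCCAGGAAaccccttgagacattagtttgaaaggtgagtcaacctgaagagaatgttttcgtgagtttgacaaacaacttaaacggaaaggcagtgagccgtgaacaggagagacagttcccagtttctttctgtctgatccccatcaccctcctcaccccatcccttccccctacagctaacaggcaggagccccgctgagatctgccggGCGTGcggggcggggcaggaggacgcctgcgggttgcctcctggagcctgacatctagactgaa
The Tnfaip3 window held 3 matches to ACGTG, of which 2 overlap as both strands of 1 palindrome, 2 matches to GCGTG and 1 to the NF-kappa-B core. The S1pr3 window held 1 match to ACGTG and 1 to TAATCC, the Scgn window 1 to GCGTG and 1 to the STAT core, and the Ip6k2 window none of the 5 motifs. Ip6k2 and Tnfaip3 each had another RefSeq window, not shown. That of Ip6k2 held none of the 5 motifs, and that of Tnfaip3 held 1 match to ACGTG and 1 to GCGTG. Among all 17617 tested genes with a promoter in the table, 25.1% held ACGTG, 44.5% GCGTG, 7.77% TAATCC, 8.68% the STAT core and 2% the NF-kappa-B core, so single matches of the first 2 are common. In these shares a gene counted when any of its windows held the motif. A match describes the letters only.

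Beyond the called genes, the naming rule gave 8 genes higher at P19 and 6 lower that did not pass the adjusted threshold in the reported edgeR fit. Ages that do not overlap were a condition of that rule, met by 2.72% of all genes. DESeq2, which called 59 genes in all, called each of these 8 and 6 genes in the same direction. Its adjusted p ran from 0.00094 for Lpcat1 to 0.049 for Pcare and Pdzph1. The adjusted p-values that follow are edgeR's. Mef2c, a transcription factor of neurons and muscle, was at 52.4 to 56.9 CPM at P19 and 27.6 to 36.9 CPM at P17 (1.65-fold, adjusted p = 0.095). Lpcat1, a lysophospholipid acyltransferase that rods need, averaged 141 ± 30.3 CPM at P19 and 85.3 ± 11.4 CPM at P17 (SD over 4 retinas, adjusted p = 0.12). Pcare, an actin regulator of photoreceptor cilia, averaged 165 ± 5.34 CPM at P19 and 99.4 ± 17.5 CPM at P17 (adjusted p = 0.34). Crh, the corticotropin-releasing hormone gene, was at 4.73 to 16.6 CPM at P19 and 0.916 to 4.38 CPM at P17 (adjusted p = 0.32). The cell polarity gene Llgl2, the peptidase gene Apeh, Tbc1d8 and Pdzph1 had fitted folds of 1.53 to 1.66. On the lower side, Lgals3, which encodes galectin-3 of activated phagocytes and glia, was at 4.98, 7.07, 2.45 and 6.2 CPM at P19 and 17.8, 15.3, 11.9 and 22 CPM at P17 (0.311-fold, adjusted p = 0.11). Adamtsl4, a matrix gene of the fibrillin fibres, averaged 4.79 ± 2.16 CPM at P19 and 14.3 ± 2.06 CPM at P17 (adjusted p = 0.12). Mrnip (adjusted p = 0.058), Gsg1, Ttc3 and Hbp1 had fitted folds of 0.494 to 0.708.

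For the antibody's own targets and receptors edgeR called no gene. Vegfa was at 101, 144, 175 and 185 CPM at P19 and at 125, 231, 294 and 280 CPM at P17. The ages overlap because P17 replicate 1 sits among the P19 values, and the fitted change was 0.652-fold (adjusted p = 0.52). Limma-voom with quality weights called Vegfa as lower at P19 (log2 fold change -0.86, adjusted p = 0.041). Angpt2 was at 7.4, 5.13, 4.12 and 2.52 CPM at P19, against 9.01, 6.81, 14.1 and 7.8 CPM at P17 (0.51-fold, adjusted p = 0.71). The VEGFA receptor gene Kdr averaged 79.6 ± 10.7 CPM at P19 and 102 ± 21.3 CPM at P17 (SD over 4 retinas, adjusted p = 0.96). The decoy receptor gene Flt1 averaged 37.4 ± 4.56 CPM at P19 and 38.4 ± 7.22 CPM at P17, with a fitted log2 fold change of -0.04 that turns positive under RLE scaling (0.01), so no direction is given. Tek, the angiopoietin receptor, was at 0.0655 to 3.94 CPM at P19 and 0 to 5.79 CPM at P17.

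Of 16 genes of VEGF and angiopoietin ligands and receptors, Vegfa and Angpt2 had an unadjusted p under 0.05, both lower, against 3.26% of all genes, and the list's median log2 fold change was -0.22, against 0.013 over all genes. Without P17 replicate 4 that median was -0.06. Tip cells lead vessel sprouts. Of 20 tip cell and neovascular endothelium genes, edgeR called none, 4 (Cd34, Unc5b, Esm1 and Angpt2) were lower at an unadjusted p under 0.05, against 3.26% of all genes, and the list's median was -0.47. That median was -0.12 without the P17 retinas that carry Y-linked counts. The tip cell gene Esm1 was at 0 to 0.263 CPM at P19 and 0.193 to 1.35 CPM at P17, too low to read closely. Apln, a peptide ligand of sprouting endothelium, was at 33.2, 17.8, 18.7 and 39.4 CPM at P19 and 38.3, 40.2, 58 and 33.4 CPM at P17 (adjusted p = 0.86). Among 24 endothelial genes, Pecam1, an endothelial junction gene, was the 1 with an unadjusted p under 0.05, against 5.78% of all genes. Pecam1 was at 1.7, 1.43, 2.19 and 1.43 CPM at P19 and at 8.3, 3.17, 3.97 and 3.5 CPM at P17 (0.357-fold, adjusted p = 0.62). The ages did not overlap, and P17 replicate 1 stood well above the rest of its group. Plvap, a gene of leaky vessels, averaged 4.51 ± 1.23 CPM at P19 and 5.52 ± 1.44 CPM at P17 (adjusted p = 1). The 4 haemoglobin and haem synthesis genes of the 9 red blood cell genes tested with an unadjusted p under 0.05 were all lower at P19 (against 3.26% of all genes). The red blood cell list summed to 320 to 542 CPM at P19 and 533 to 885 CPM at P17, its median of -0.72 was -0.34 without P17 replicate 4, and its part in the endothelial values was not tested.

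Hypoxia genes lay lower at P19. Hypoxia-inducible factor (HIF) switches them on when oxygen is scarce. Of 30 hypoxia and HIF target genes, edgeR called none, 11 had an unadjusted p under 0.05, all lower (against 3.26% of all genes), and 24 had a negative log2 fold change (against 48.5%). Other tools called 1 or 2 members, all lower: Hmox1 with DESeq2, Vegfa with limma-voom, and Bnip3 and Ndufa4l2 with limma-trend on log2(TPM + 1). The list's median was -0.32. Ndufa4l2, a HIF-induced mitochondrial protein gene, was at 56.7, 40.6, 19.7 and 60.4 CPM at P19 and at 79, 62.2, 70.7 and 97.7 CPM at P17. The ages did not overlap (0.573-fold, adjusted p = 0.43). Bnip3, a mitophagy receptor gene, was at 476, 433, 248 and 422 CPM at P19 and at 522, 637, 526 and 748 CPM at P17, also with no overlap (0.649-fold, adjusted p = 0.36). Hmox1, the haem-degrading oxygenase gene, was at 4.82 to 10.5 CPM at P19 and 15.9 to 55.5 CPM at P17 (adjusted p = 0.18). Pdk1, a pyruvate dehydrogenase kinase gene, was at 27.6 to 51.1 CPM at P19 and 55.9 to 67.1 CPM at P17 (adjusted p = 0.52). Adm, a vasodilator peptide gene, was at 8.41 to 13.6 CPM at P19 and 8.95 to 31.5 CPM at P17 (adjusted p = 0.84).

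The mean level of the hypoxia list, as log2 CPM averaged over its members, was 5.35, 5.42, 4.88 and 5.37 at P19, against 5.28, 5.67, 5.63 and 5.89 at P17. P19 replicate 3 was the lowest of the 8, and P17 replicate 1 lay below 3 of the P19 retinas. The list stood at 5.26 ± 0.25 in bispecific retinas at P19, against 5.36 ± 0.07 in IgG retinas and 4.62 ± 0.11 in normal retinas of that age (SD over 4 retinas each). In promoters, 70.8% of the 24 hypoxia genes with a window held ACGTG and 75% held GCGTG, against 25.1% and 44.5% of all tested genes with a window. The list was drawn up as HIF targets, so these shares describe the list and not the change at P19. Of the 18 glycolysis genes, edgeR called none and 3 (Pgk1, Tpi1 and Pfkp) were lower at an unadjusted p under 0.05, against 3.26% of all genes. Limma-trend on log2(TPM + 1) called Pgk1 and Tpi1. The list's median was -0.03, and 0.11 without P19 replicate 3, so no direction is given.

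Reactive glia genes were lower at P19 in bispecific retinas. Of 22 reactive glia genes, edgeR called 1 (Cp, described above), 12 had an unadjusted p under 0.05, all lower (against 3.26% of all genes), and 21 had a negative log2 fold change (against 48.5%). DESeq2 also called Anxa3, and limma-trend on log2(TPM + 1) also called Anxa3 and Timp1. The list's median of -0.65 compares with 0.013 over all genes. Gfap, the filament protein gene of astrocytes and reactive Müller glia, was at 220, 176, 65.3 and 132 CPM at P19, against 341, 256, 148 and 346 CPM at P17. P17 replicate 3 lay among the P19 values (0.545-fold, adjusted p = 0.71). Anxa3, an annexin gene, was at 10.3, 10.1, 4.21 and 8.52 CPM at P19 and at 20.5, 20.6, 15 and 18.8 CPM at P17 (0.445-fold, adjusted p = 0.19). Nes, the filament protein nestin of progenitors and reactive glia, was at 6.2 to 13.7 CPM at P19 and 16.3 to 22.2 CPM at P17 (adjusted p = 0.31). Timp1, an inhibitor of metalloproteinases, was at 0.175 to 1.38 CPM at P19 and 1.59 to 15.1 CPM at P17 (adjusted p = 0.44). Lcn2, which encodes the iron-siderophore carrier lipocalin-2, was at 2.28 to 8.19 CPM at P19 and 7.08 to 44.5 CPM at P17 (adjusted p = 0.32).

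By list mean, reactive glia genes were at 3.56, 3.65, 2.81 and 3.48 log2 CPM at P19, against 4.44, 4.37, 3.72 and 4.44 log2 CPM at P17. All 4 P19 retinas lay below all 4 P17 retinas, though P17 replicate 3 was close to P19 replicate 2. Without P19 replicate 3 the list's median log2 fold change was -0.49. In promoters, 10% of the 20 reactive glia genes with a window held the STAT core, against 8.68% of all tested genes. Of 15 Müller glia genes, 6 were lower at an unadjusted p under 0.05, among them Crym and Sox9, against 3.26% of all genes, with a median of -0.25. That median was -0.52 without P19 replicate 2 and -0.01 without P19 replicate 3, whose list mean (6.45 log2 CPM) lay below those of the other 3 P19 retinas (7.13 to 7.65) and of the P17 retinas (7.3 to 7.62).

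**Figure D2:**
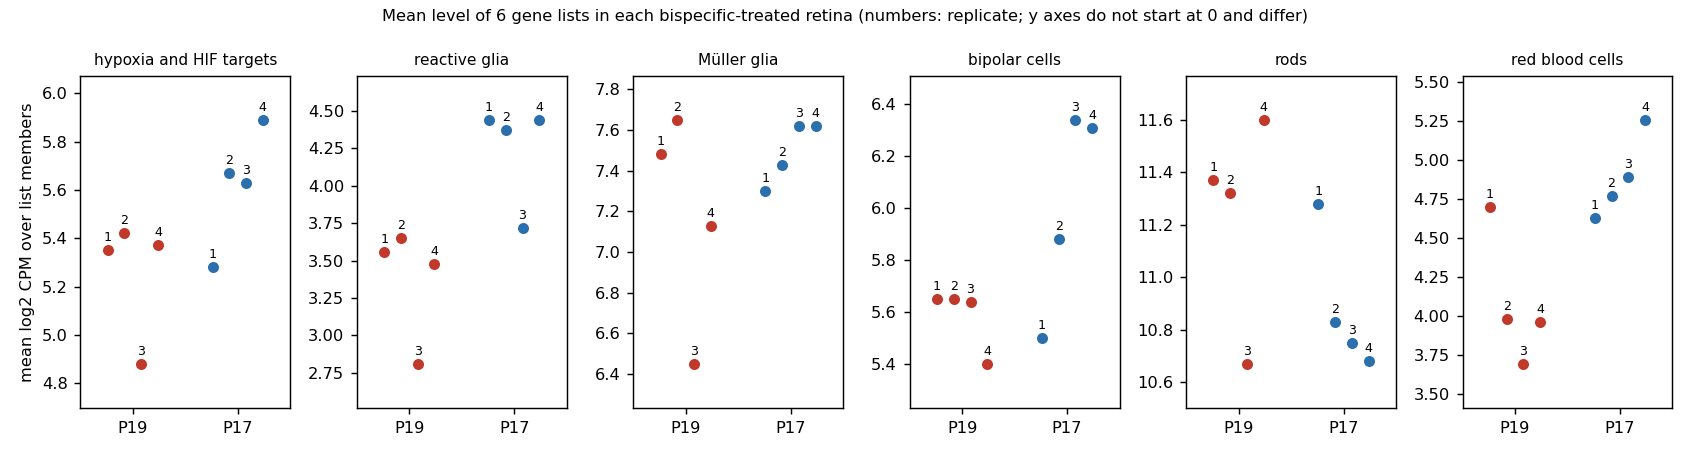
Mean log2 CPM over the members of 6 gene lists in each bispecific retina, P19 left of P17, each point labelled with its replicate number; the y axes differ between panels and do not start at 0. The reactive glia panel has all P19 points below all P17 points, the ages overlap in the other 5 panels, and P19 replicate 3 is the lowest P19 retina in every panel but the bipolar one.

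Among immune genes edgeR called no member. None of 20 microglia and macrophage genes, 14 complement genes or 14 cytokine and chemokine genes had an unadjusted p under 0.05, against 5.78% of all genes. The medians of these lists were -0.23, -0.34 and -0.75. Cytokine and chemokine genes were near the floor, with a list mean of 0.5 ± 0.41 log2 CPM at P19 and 1.31 ± 0.52 log2 CPM at P17. With the compared groups fitted alone their median was -0.4. Without P19 replicate 3 the microglia and macrophage median was -0.02 and the complement median -0.2, and without P19 replicate 2 they were -0.37 and -0.52. C1qb, a complement gene made by microglia, averaged 88.2 ± 28.9 CPM at P19 and 106 ± 22.4 CPM at P17 (adjusted p = 1). Aif1, a marker of microglia, averaged 1.69 ± 0.544 CPM at P19 and 2.11 ± 0.472 CPM at P17 (adjusted p = 1). The chemokine gene Ccl2 was at 0.262 to 1.16 CPM at P19 and 0.488 to 1.72 CPM at P17 (adjusted p = 1). In the list of activated microglia, 4 of 19 genes (Lgals3, Lpl, Cd9 and Spp1) were lower at an unadjusted p under 0.05, against 3.26% of all genes. Lgals3 was called as lower by DESeq2 (adjusted p = 0.003), limma-trend on log2(TPM + 1) (0.0054) and edgeR with a replicate block (0.047). Lpl, the lipoprotein lipase gene, was at 26.1, 30, 15.9 and 17.1 CPM at P19 and at 40.2, 44.4, 36.2 and 39.8 CPM at P17 (0.556-fold, adjusted p = 0.36).

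Rod genes were higher at P19 by fitted change, but the list means of the ages overlapped. These means were 11.37, 11.32, 10.67 and 11.6 log2 CPM at P19, against 11.28, 10.83, 10.75 and 10.68 log2 CPM at P17. P19 replicate 3 was the lowest of all, and P17 replicate 1 lay close to P19 replicates 1 and 2. Of 20 rod genes edgeR called none, 10 had an unadjusted p under 0.05, all higher (against 2.52% of all genes), and 20 of 20 had a positive log2 fold change (against 51.5%), with a median of 0.34. Limma-voom called 5 members, limma-trend on log2(TPM + 1) called 3 and DESeq2 called 1, Guca1b. Guca1a, which encodes a calcium-sensing activator of guanylate cyclase in photoreceptors, was at 1160, 1040, 911 and 1900 CPM at P19 and at 1060, 621, 426 and 420 CPM at P17. P17 replicate 1 lay within the P19 range (1.98-fold, adjusted p = 0.19). Grk1, a kinase gene of the light response, was the 1 rod gene whose ages did not overlap, against 2.72% of all genes. It was at 303 to 354 CPM at P19 and 219 to 284 CPM at P17 (adjusted p = 0.71). In promoters, 35.7% of the 14 rod genes with a window held the CRX core TAATCC, against 7.77% of all tested genes. The share was 33.3% among the 15 bipolar genes with a window, a list that lay lower at P19.

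Bipolar cell genes were lower at P19. Bipolar cells carry the signal of photoreceptors to the inner retina. Of 17 bipolar genes, edgeR called 1 (Scgn), 8 had an unadjusted p under 0.05, all lower (against 3.26% of all genes), and 16 had a negative log2 fold change (against 48.5%), with a median of -0.47. Cabp5, a calcium-binding protein gene, was at 80.8, 71.5, 61.2 and 65.3 CPM at P19 and at 97.7, 90.1, 109 and 112 CPM at P17, with no overlap (0.681-fold, adjusted p = 0.34). Isl1, a transcription factor gene of bipolar and other inner neurons, was at 99.1, 118, 98.2 and 73.9 CPM at P19 and at 82.5, 125, 174 and 179 CPM at P17 (adjusted p = 0.54). Trpm1, the cation channel of ON bipolar cells, was at 139, 136, 320 and 165 CPM at P19 and at 124, 266, 426 and 420 CPM at P17 (adjusted p = 0.71). For both Isl1 and Trpm1 the highest P17 values came from replicates 3 and 4, the retinas with Y-linked counts. P17 replicate 1 lay near the P19 retinas, and P17 replicate 2 lay between it and replicates 3 and 4. Without replicates 3 and 4 the bipolar list's median was -0.06 and the rod list's was 0.16. With Y-linked counts as a covariate over all libraries, the bipolar median was -0.36 and Scgn stayed called. At P17 the bipolar level was higher in the retinas with Y-linked counts, and the part of sex in the difference was not tested.

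For Scgn, P17 replicates 1 and 2 (184 and 223 CPM) were both above the highest P19 retina (142 CPM). Without P17 replicates 3 and 4 its log2 fold change was -0.71, against -0.76 with them, but the edgeR call was lost (adjusted p = 0.14). Among genes of young neurons, Tubb2b, a tubulin gene of growing axons, was at 20 to 29.6 CPM at P19 and 39.3 to 57.6 CPM at P17 (0.538-fold, adjusted p = 0.16 by edgeR), and was called by DESeq2 and limma-trend.

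Outside the neural retina, crystallin genes were uneven within P19. Cryaa, the lens alpha-A crystallin gene, was at 146, 16.7, 1.4 and 1.23 CPM at P19 and at 0.966, 0.104, 0.793 and 0.269 CPM at P17 (adjusted p = 0.71). The list of 16 crystallins summed to 461, 147, 61.3 and 101 CPM at P19 and to 89.9 to 114 CPM at P17, so its high values came from P19 replicates 1 and 2. Rpe65, the visual cycle isomerase gene of the pigment epithelium, was at 61.1, 144, 24.8 and 155 CPM at P19 and 112, 98.9, 129 and 105 CPM at P17. Its fitted log2 fold change of -0.21 (adjusted p = 1) was 0.11 without P19 replicate 3.

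Between the same ages, the context groups had few called genes. In OIR retinas given IgG edgeR called 2 of 23495 genes (0.00851%), 1 in each direction (0.00426%), with 1102 at an unadjusted p under 0.05 (4.69%). Mir670hg, the host transcript of a microRNA, rose, and Bbs10, a chaperonin-like gene of cilia, fell. In normal retinas 23 genes were called (0.0979%), 15 that rose (0.0638%) and 8 that fell (0.034%), with 1413 at an unadjusted p under 0.05 (6.01%). None of the 7 genes called in bispecific retinas was called in either group, though 6 changed in the same direction in IgG retinas and 5 in normal retinas. Of the 1358 genes with an unadjusted p under 0.05 in bispecific retinas, 110 (8.1%) also had one in IgG retinas in the same direction, which is 9.98% of the 1102 there, and 34 had one in the opposite direction. For normal retinas the shared genes numbered 110 in the same direction (7.78% of 1413) and 48 in the opposite one. By sign alone, 819 of the 1358 (60.3%) went the same way in IgG retinas and 736 (54.2%) in normal retinas. The share of all genes with the same sign was not computed, so these shares have no background beside them. Over all 23495 genes, the log2 age effects of bispecific retinas had a Pearson correlation of -0.04 with those of IgG retinas and -0.01 with those of normal retinas, across genes, which are not independent replicates. These comparisons share no library with the bispecific comparison.

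Several gene lists had P19 over P17 medians alike in sign in bispecific and IgG retinas. The reactive glia median was -0.65 in bispecific, -0.58 in IgG and -0.16 in normal retinas. The hypoxia medians were -0.32 in bispecific, -0.3 in IgG and 0.06 in normal retinas. The bipolar medians were -0.47 in bispecific, 0.03 in IgG and -0.29 in normal retinas, and those of rods were 0.34 in bispecific, 0.08 in IgG and 0.42 in normal retinas. The medians were not tested against each other.

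**Figure D3:**
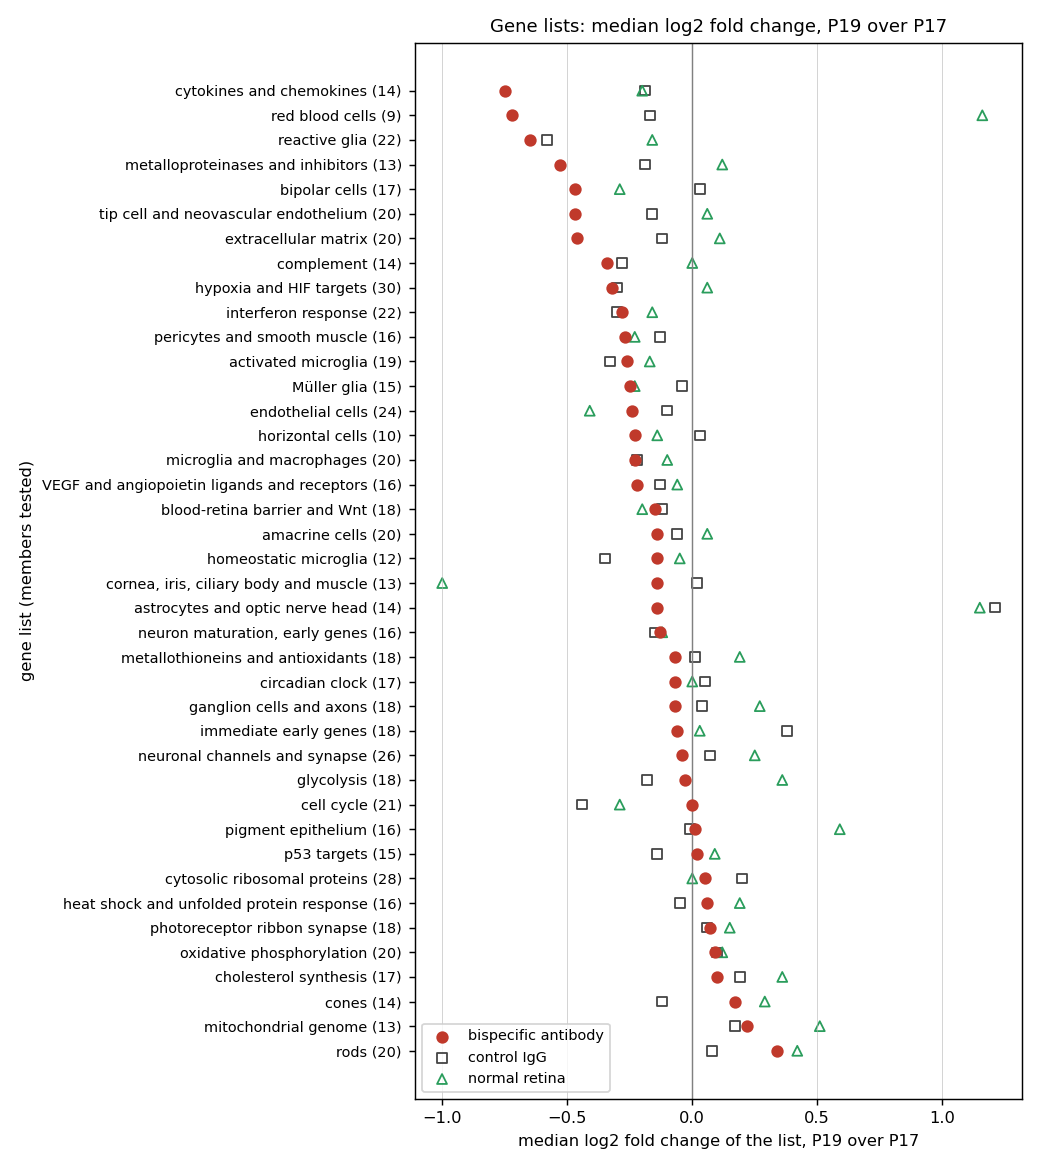
Median log2 fold change of each gene list, P19 over P17 (x axis), for bispecific retinas (filled circles), IgG retinas (open squares) and normal retinas (open triangles), with the number of members tested in brackets and lists ordered by the bispecific median. Cytokine (-0.75), red blood cell (-0.72) and reactive glia (-0.65) lists lie lowest in bispecific retinas and rods (0.34) highest; lens, crystallin and sex-linked lists are not drawn.

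The difference between the bispecific and the IgG age effect was tested gene by gene as an interaction. edgeR called 0 genes (0%), with 1055 at an unadjusted p under 0.05 (4.49%). Limma-voom also called 0, limma-trend on log2(TPM + 1) called 1, and DESeq2 called 19. Gabrb2 had the smallest p. Its P19 minus P17 log2 difference was -0.99 in bispecific and 0.12 in IgG retinas, a difference of -1.1 (SE 0.25, adjusted p = 0.66). For Scgn the difference was -0.71 (SE 0.18, adjusted p = 0.76), and for Ip6k2 it was 0.68 (SE 0.2, adjusted p = 0.94). The other leading genes were Bbs10 (1.27), Gng13 (-1.05), a G protein subunit gene of ON bipolar cells, and Gsg1 (-0.85), with adjusted p-values of 0.76 to 0.94. DESeq2 called Gabrb2 (-1.05, adjusted p = 0.024) and Scgn (-0.66, adjusted p = 0.035) in this interaction. Its result for the rest of the 7 genes is not given here. By edgeR no difference from IgG retinas was shown for any of the 7. All 4 IgG retinas at P19 carried Y-linked counts and all 4 bispecific retinas at P19 carried Xist only, and the part of sex in these differences was not tested.

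Against normal retinas the interaction called 4 genes (0.017%), 1 with a higher (0.00426%) and 3 with a lower (0.0128%) age effect in bispecific retinas, with 1302 at an unadjusted p under 0.05 (5.54%). Ip6k2 averaged 80.4 ± 10 CPM at P19 and 44.3 ± 1.71 CPM at P17 in bispecific retinas, and 34.7 ± 3.26 CPM at P19 and 43.8 ± 4.2 CPM at P17 in normal retinas (SD over 4 retinas each). The age effects differed by 1.2 on the log2 scale (SE 0.2, adjusted p = 0.0041). Spp1, which encodes the secreted phosphoprotein osteopontin, was at 53.8, 49.3, 30.4 and 42.8 CPM at P19 and at 98.9, 70.8, 35.9 and 64.2 CPM at P17 in bispecific retinas, where the ages overlapped. In normal retinas Spp1 averaged 83.6 ± 8.16 CPM at P19 and 35.7 ± 6.3 CPM at P17, and the difference of age effects was -1.84 (SE 0.33, adjusted p = 0.013).

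Chrna6, a nicotinic acetylcholine receptor subunit gene, averaged 118 ± 29.4 CPM at P19 and 167 ± 18 CPM at P17 in bispecific retinas, and 228 ± 35.4 CPM at P19 and 122 ± 21.1 CPM at P17 in normal retinas. Its age effects differed by -1.4 (SE 0.25, adjusted p = 0.013). The transcript 2900052N01Rik averaged 23.7 ± 6.58 CPM at P19 and 34.6 ± 10.7 CPM at P17 in bispecific retinas, and 27.7 ± 2.88 CPM at P19 and 9.84 ± 1.91 CPM at P17 in normal retinas (difference -2.04, SE 0.34, adjusted p = 0.0041). For Spp1, Chrna6 and 2900052N01Rik the change that passed the test was the rise in normal retinas (adjusted p = 0.013, 0.018 and 0.0019), whereas for Ip6k2 it was the rise in bispecific retinas. In IgG retinas the log2 age effects of Spp1 and Chrna6 were -0.17 and 0.2, and their difference from the IgG age effect was not called (adjusted p = 1 for Spp1 and 0.98 for Chrna6). The calls of Spp1 and Chrna6 were lost without P19 replicate 3 (adjusted p = 0.052 for each) and in several other fits.

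The levels of the 7 called genes in retinas given a single antibody, at the lower concentration, are given side by side without a test. Ip6k2 averaged 72.3 ± 9.11 CPM at P19 and 42.5 ± 6.38 CPM at P17 in anti-ANG2 retinas, and 64.8 ± 7.1 CPM at P19 and 43 ± 7.6 CPM at P17 in anti-VEGFA retinas. Scgn averaged 130 ± 14.5 CPM at P19 and 217 ± 2.22 CPM at P17 in anti-ANG2 retinas, and 216 ± 16.9 CPM at P19 and 236 ± 17.1 CPM at P17 in anti-VEGFA retinas. Gabrb2 averaged 27.1 ± 3.76 CPM at P19 and 39.8 ± 3.84 CPM at P17 in anti-ANG2 retinas, and 40.3 ± 3.43 CPM at P19 and 39.3 ± 5.19 CPM at P17 in anti-VEGFA retinas (SD over 4 retinas each). Tnfaip3 averaged 86.4 ± 4.25 CPM at P19 and 66.7 ± 5.93 CPM at P17 in anti-ANG2 retinas, and 109 ± 19.6 CPM at P19 and 90.4 ± 8.22 CPM at P17 in anti-VEGFA retinas. S1pr3 averaged 27.9 ± 3.46 CPM at P19 and 46.4 ± 15.4 CPM at P17 in anti-ANG2 retinas, and 38.3 ± 10.1 CPM at P19 and 59.3 ± 13.3 CPM at P17 in anti-VEGFA retinas. Cp averaged 133 ± 13 CPM at P19 and 187 ± 21 CPM at P17 in anti-ANG2 retinas, and 174 ± 17.6 CPM at P19 and 200 ± 14.3 CPM at P17 in anti-VEGFA retinas. B230220B15Rik averaged 23.5 ± 4.89 CPM at P19 and 5.64 ± 1.73 CPM at P17 in anti-ANG2 retinas, and 15.3 ± 8.05 CPM at P19 and 8.92 ± 2.71 CPM at P17 in anti-VEGFA retinas. The P19 mean lay on the same side of the P17 mean as in bispecific retinas for all 7 genes in anti-ANG2 retinas, and for all but Gabrb2 in anti-VEGFA retinas, as a description with no test.

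**Figure D4:**
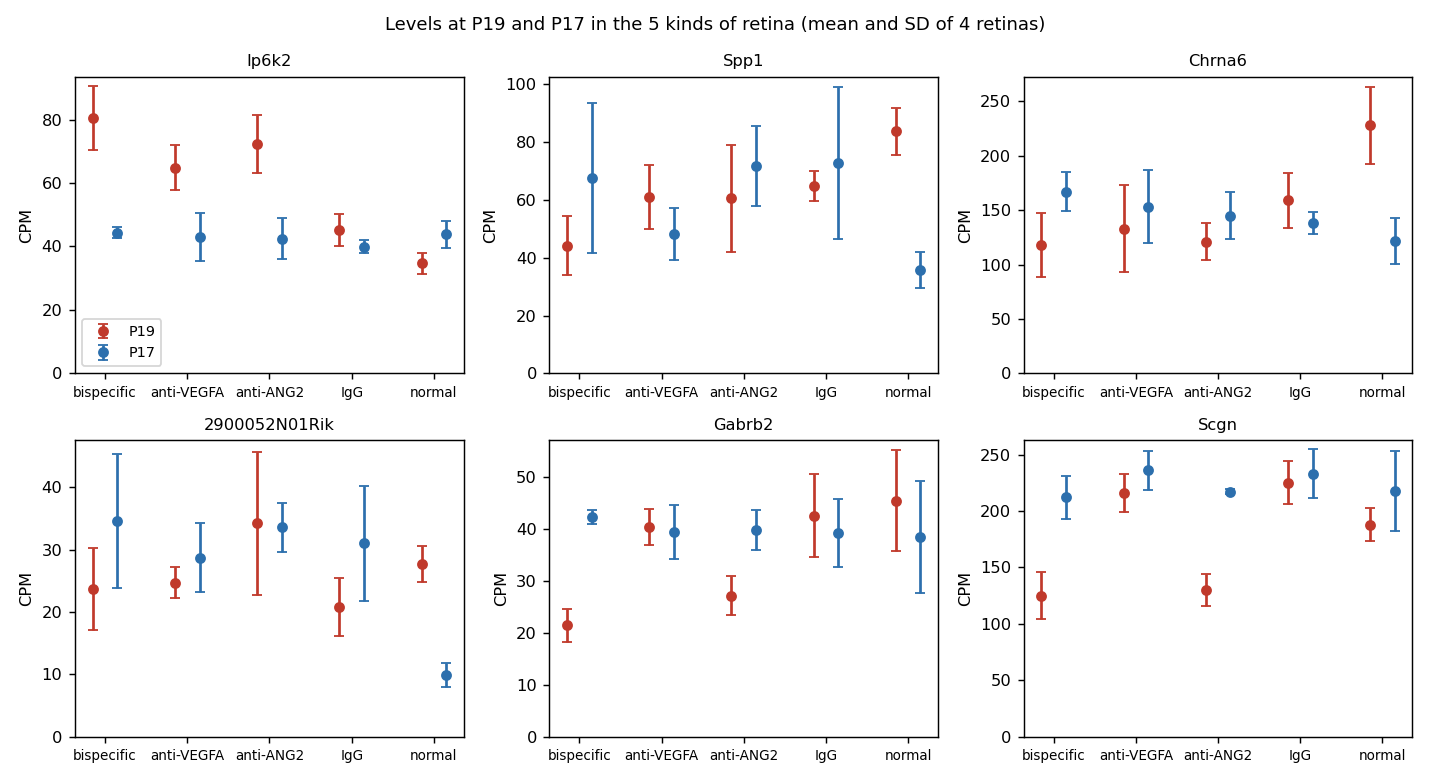
Mean and SD of CPM over 4 retinas for 6 genes (y axes from 0), P19 left of P17, in retinas given the bispecific antibody, anti-VEGFA, anti-ANG2 or IgG and in normal retinas, with the single antibodies at the lower concentration. Ip6k2 at P19 is highest in bispecific retinas (80.4 CPM), while Spp1 and Chrna6 at P19 are highest in normal retinas (83.6 and 228 CPM).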

How the data were processed

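RNA-seq of whole retinas was deposited as a table of expected counts for 42037 gene symbols in 40 libraries (10 groups of 4), and as TPM values. The submitters' processing notes name STAR 2.7.10a, RSEM 1.3.3 and the build GRCm38.p4; which annotation served for counting is not stated in the sources used here. Each library was made from 1 retina, per the labels' protocols, with SMART-Seq mRNA and Nextera XT preparation. Strand and molecular identifiers are not mentioned there, so overlapping genes on opposite strands cannot be told apart and reads are not independent molecules. The deposited expected counts were rounded before fitting, since 15.7% of the nonzero ones held decimals. The authors' TPM values were used for marker levels and for 1 alternative test.

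Counts were TMM-scaled and filtered by group, which left 23495 genes, and were fitted with edgeR 4.0.16 (quasi-likelihood, robust) in R 4.3.3 over all 40 libraries and 10 groups. A gene was called at a Benjamini-Hochberg adjusted p under 0.05 within its comparison. CPM values are TMM-scaled, and folds are the model's. Replicates of a group differed by more than sampling noise, so none was counted as a duplicate. The p-values measure the spread between retinas, which may share a mouse or litter. Total counts per library ranged from 9160000 to 25800000 (mean 17100000, SD 3520000). On simulated counts of the 23495 genes for the bispecific comparison, 200 genes with a mean count of at least 20 were altered. Of these, edgeR found 7.46%, 44.8% and 75.8% of those altered by 1.5-fold, 2-fold and 4-fold, and 4.49% of its calls were false. Recovery among genes with lower counts was not simulated.

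The members and the 43 gene lists were chosen with earlier results of these data known. Genes named were up to 12 called genes per direction averaging 5 CPM or more in the higher age, with no overlap between the ages, without clone names or sex-linked genes, filled to 10 by smallest p, plus the 5 genes of smallest p in each interaction and a set of 20 fixed genes. Other list members are named from those with an unadjusted p under 0.05, after their values were seen, and some items are not reported here. Alternatives were RLE factors, other filters, covariates (Y-linked counts, pigment epithelium and crystallin levels, mitochondrial share), the compared groups alone, a replicate block, DESeq2 1.42.0, limma 3.58.1 (voom with quality weights, and limma-trend on log2(TPM + 1) or log2(TPM + 0.1)), and fits without single libraries. Fits without the 2 bispecific P17 libraries with Y-linked counts, and without the 2 bispecific P19 libraries highest in crystallins, were chosen after seeing the data. Genes were placed by symbol with GENCODE (GRCm38), and promoter windows were taken from RefSeq (GRCm38.p6).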

Additional observations from a re-analysis of the deposited data

Results flagged for a closer look

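In 92 sets of 4 retinas, each the values of 1 named gene in bispecific retinas of 1 age, 5 held a retina separated from the other 3 by a wide gap, and chance flags about 1 in 20 such sets. Cryaa was at 146 CPM in P19 replicate 1, against 1.23 to 16.7 CPM in the other P19 retinas. Tek was at 3.94 CPM in P19 replicate 3, against 0.0655 to 0.613 CPM in the others, and Ccl2 was at 1.16 CPM in P19 replicate 4, against 0.262 to 0.35 CPM. At P17, Pecam1 was at 8.3 CPM in replicate 1, against 3.17 to 3.97 CPM in the others. Pdzph1 was at 60.4 CPM in P17 replicate 4, against 91.9 to 95.9 CPM.

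The P19 minus P17 change differed between bispecific and normal retinas, by the interaction test of edgeR, for 4 genes. The differences in log2 age effect were 1.2 for Ip6k2, -2.04 for 2900052N01Rik, -1.84 for Spp1 and -1.4 for Chrna6. Ip6k2 and 2900052N01Rik kept their call in every alternative fit that was run.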

How the results depend on the processing

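The count of 7 called genes in bispecific retinas was 13 with the mitochondrial share as a covariate, 0 with the 8 libraries alone (edgeR, 713 at an unadjusted p under 0.05), 59 with DESeq2 (27 higher, 32 lower), 34 with voom (22 higher, 12 lower), and 28 and 27 with limma-trend on log2(TPM + 1) and log2(TPM + 0.1), of which 6 were higher in each, against 3 higher and 4 lower in the reported fit. Leaving out single libraries gave 4 to 12, with 4 without P19 replicate 1 or 4 and 12 without P19 replicate 3 or P17 replicate 1. It was 1 without the P17 libraries with Y-linked counts and 21 without the P19 libraries highest in crystallins. Fits that leave out libraries have fewer samples; the cause of the other shifts was not tested.

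The IgG count of 2 was 18 with DESeq2, 4 and 0 with limma-trend (875 genes at an unadjusted p under 0.05 with log2(TPM + 0.1)) and 0 to 2 without single libraries. The normal count of 23 was 67 with the mitochondrial share, 55 with the groups alone, 142 with DESeq2 (116 higher), 192 with voom (153 higher), 134 and 127 with limma-trend (31 and 33 higher, with medians over all genes of -0.114 and -0.158), and 5 to 31 without single libraries. The interaction against IgG, 0 in the reported fit, was 19 with DESeq2, 1 and 1 with limma-trend, and 0 to 2 without single libraries. The interaction against normal retinas, 4 in the reported fit, was 7 with tissue covariates, 8 with the mitochondrial share, 32 with DESeq2, 9 with voom, 9 and 9 with limma-trend, 2 to 8 without single libraries and 27 without the P19 libraries highest in crystallins.

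With a replicate block the bispecific count was 9, including all 7, the IgG count 2, the normal count 37, and the interactions 0 and 6. Same-numbered P19 and P17 retinas deviated from their group means with correlations of 0.02, -0.07, 0.03 and 0.02. These values cannot tell whether same-numbered retinas shared a litter or a preparation, which was not tested.

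Values that changed sign, none of them called, were Flt1 (0.01 with RLE, 0.02 with the Y-linked covariate, 0.09 with the mitochondrial share, 0.01 with DESeq2, -0.16 to 0.04 without single libraries, above 0 without P19 replicate 3, P17 replicate 3 or P17 replicate 4, and 0.18 without the P17 libraries with Y-linked counts), Tek (-2.58 to 0.12 without single libraries, the highest without P17 replicate 1), Plvap (0.04 without the P17 libraries with Y-linked counts), Rpe65 (-0.54 to 0.11 without single libraries, the highest without P19 replicate 3) and Xist (-0.97 with the Y-linked covariate, -0.01 without the P17 libraries with Y-linked counts). Of the other values of named genes, 1107 kept direction and side of the threshold, 49 newly passed it and 52 lost it. At this depth and 4 retinas a group, most 1.5-fold changes would be missed (7.46% recovered in simulation, among genes with a mean count of at least 20).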
